A study of Homo sapiens with 6 samples.

Results

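The baseline transcriptome of HT-1080 cells was described from the 3 libraries of cells given solvent alone (0.1% DMSO, 4 h), which are 3 of the 6 libraries of the series. They were chosen by their titles and treatment label and no measured value was used. HT-1080 is an established human line from a fibrosarcoma, and before treatment the cells were kept overnight in minimal essential medium with non-essential amino acids and serum, per the labels' protocols. The series design calls the libraries of a condition biological replicates, and nothing further is said of passage or day, so the spread given here is the spread between these 3 libraries. The other 3 libraries, from cells given an inhibitor of the kinase IRAK4, were not analysed here.

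Fibrosarcoma is a malignancy of mesenchymal cells, the cells that make collagen-rich connective tissue, and HT-1080 is widely used to study invasion, plasminogen activation and ferroptosis. The line is known to carry an activating mutation of NRAS, a small GTPase that signals through the RAF and MAP kinases, and a mutation of the cytosolic isocitrate dehydrogenase IDH1. It is also known to have lost the CDKN2A locus, which encodes inhibitors of the cell cycle. A baseline profile lists which of the receptors, proteases, oncogenes and enzymes of such a cell are transcribed, and which gave no signal.

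RNA was measured with the Ion AmpliSeq Transcriptome panel, in which a short part of each targeted transcript is amplified in a multiplex polymerase chain reaction, and the amplified parts are sequenced. The libraries held 15336351, 14805241 and 12003104 counts in replicates 1, 2 and 3. Levels are given in CPM, the count of a gene per 1000000 counts of its library, as mean ± SD over the 3 libraries (n = 3 throughout). Values of single libraries are given in the order of replicates 1, 2 and 3. Because each transcript gives 1 amplified part, CPM does not scale with transcript length. It does depend on how well that part is amplified and on whether its reads can be placed uniquely, so an order of levels between genes is an order of these readings.

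Of 20683 gene symbols, 13028 (63.0%) had a count in every library, 5284 (25.55%) had none in any library and 2371 (11.5%) had a count in some libraries only. A gene was taken as expressed when it reached 1 CPM in each library, and 10844 symbols (52.4%) did so. A mean of at least 10 CPM was reached by 7980 symbols (38.6%) and a mean of at least 100 CPM by 2016 (9.75%). These shares over all symbols are the background for the counts within gene groups below. A gene without a count could lie at up to 0.196, 0.203 or 0.250 CPM in the 3 libraries, the level of 3 counts, and this bound covers counting error only.

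The counts were concentrated in few genes. The 132 genes at a mean of 1000 CPM or more held 30.7% ± 0.735 of all counts, and the 1884 genes from 100 to under 1000 CPM held 44.8%. The 20 most abundant genes took 12.5% ± 0.677, the 100 most abundant 27.1% ± 0.732, and 510 ± 22.5 genes made up the first 50% of counts. At the other end, the 4252 genes with a mean above 0 and under 1 CPM together held 0.0917% of counts. The median level of the expressed genes was 27.6 ± 0.570 CPM.

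**Figure D1:**
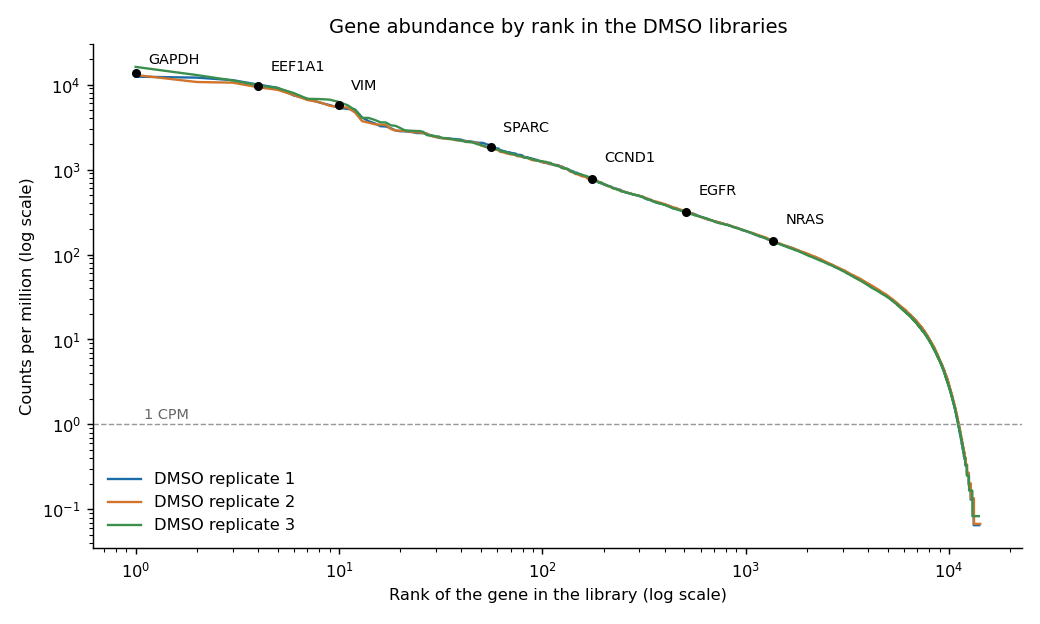
CPM of each gene with a count (vertical axis, log scale) against its rank in the library (horizontal axis, log scale), 1 line per DMSO library; black points mark the mean CPM and rank of named genes. The 3 lines lie on each other, from GAPDH at 13833 CPM through CCND1 at 765.6 and EGFR at 313.5 to NRAS at 144.3 CPM.

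The most abundant transcripts were those of glycolysis, the cytoskeleton and translation. GAPDH, the glycolytic glyceraldehyde-3-phosphate dehydrogenase, ranked first with 12388, 12969 and 16141 CPM. Replicate 3 was the highest of these, and the mean was 13833 ± 2020 CPM. The cytoplasmic actins followed, ACTG1 with 11907 ± 1120 and ACTB with 10994 ± 403 CPM. The elongation factor EEF1A1, which brings aminoacyl-tRNA to the ribosome, reached 9706 ± 362 CPM and EEF2, which moves the ribosome along the mRNA, 6511 ± 321 CPM. The only noncoding RNA among the first 10 was RMRP, the RNA of the RNase MRP complex that processes ribosomal RNA, with 9160, 8666 and 9089 CPM. The tenth place was held by VIM, which encodes vimentin, the intermediate filament of mesenchymal cells, with 5729, 5368 and 6234 CPM. Chaperones of the endoplasmic reticulum were also in the leading group, among them CALR (calreticulin, 4930 ± 216 CPM) and HSP90B1 (3002 ± 200.2 CPM).

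Genes of the translation apparatus were expressed almost throughout. Of 84 cytosolic ribosomal protein genes, 77 were expressed and 40 reached 1000 CPM, and together they held 10.1% of counts. RPL4 (7627 ± 269.7 CPM) and RPL11 (6588 ± 327 CPM) led them. All but 1 of 24 translation factor genes were expressed and 8 reached 1000 CPM. Of 51 genes of the actin cytoskeleton, 40 were expressed, led after the actins by TMSB10, a thymosin that binds actin monomers (2734 ± 207 CPM), MYH9, the heavy chain of non-muscle myosin (2372 ± 53.7 CPM), and MSN, which links actin to the membrane (2115 ± 71.2 CPM). The muscle actin ACTA1 and the muscle actinin ACTN3 had no count.

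Several genes of high rank lay outside the gene groups used here. DHRS2, a short-chain dehydrogenase, had 3212, 3352 and 3083 CPM and ranked 17. PTMA (prothymosin alpha) had 3038 ± 479 CPM, and the heat shock cognate HSPA8 2824 ± 60.9 CPM. TUBA1B and TUBB, which form the tubulin dimers of microtubules, had 3110 ± 137 and 2738 ± 85.3 CPM.

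Promoter windows of 4 genes, at 1 annotated start each, are shown as examples of the words counted below. Of these, 3 are from genes of high level and 1 from a gene near 0. GAPDH has the highest level, EEF2 is the most abundant gene with the letters TATAAA among the 107 genes at 1000 CPM or more that have a promoter in the table used (132 genes reach that level), MT2A encodes a metallothionein, a metal-binding protein, at 3499 ± 93.9 CPM, and ALB, the albumin gene of the liver, had 1 count in 1 library. The sequences are from RefSeq (GRCh38.p14), run 5′ to 3′ on the strand of the gene and cover 250 bases before to 50 bases after the start, and capitals mark 3 words on either strand: TATAAA as in a TATA box, CCAAT as in a CCAAT box, and GGGCGG as in a GC box. GAPDH lies on the plus strand (chr12:6535014-6535313), EEF2 on the minus strand (chr19:3985414-3985713), MT2A on the plus strand (chr16:56608334-56608633) and ALB on the plus strand (chr4:73404037-73404336).
GAPDH: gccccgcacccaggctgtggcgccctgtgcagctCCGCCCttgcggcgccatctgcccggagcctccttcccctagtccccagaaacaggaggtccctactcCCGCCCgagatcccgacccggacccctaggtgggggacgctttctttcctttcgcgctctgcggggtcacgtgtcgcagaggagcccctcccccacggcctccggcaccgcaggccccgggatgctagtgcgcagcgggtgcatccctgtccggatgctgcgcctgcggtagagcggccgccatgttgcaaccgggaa
EEF2: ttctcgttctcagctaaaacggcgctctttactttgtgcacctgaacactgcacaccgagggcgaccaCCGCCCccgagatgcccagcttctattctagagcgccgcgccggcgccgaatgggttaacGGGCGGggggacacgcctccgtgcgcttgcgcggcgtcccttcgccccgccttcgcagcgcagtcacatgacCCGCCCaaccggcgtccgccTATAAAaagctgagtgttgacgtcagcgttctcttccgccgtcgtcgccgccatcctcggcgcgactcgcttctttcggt
MT2A: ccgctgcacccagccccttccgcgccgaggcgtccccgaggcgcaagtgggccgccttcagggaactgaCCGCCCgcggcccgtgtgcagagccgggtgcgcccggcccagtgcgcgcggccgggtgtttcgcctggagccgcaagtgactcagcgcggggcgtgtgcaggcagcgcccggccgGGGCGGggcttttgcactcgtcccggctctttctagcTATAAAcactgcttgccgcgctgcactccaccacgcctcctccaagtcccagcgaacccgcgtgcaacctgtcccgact
ALB: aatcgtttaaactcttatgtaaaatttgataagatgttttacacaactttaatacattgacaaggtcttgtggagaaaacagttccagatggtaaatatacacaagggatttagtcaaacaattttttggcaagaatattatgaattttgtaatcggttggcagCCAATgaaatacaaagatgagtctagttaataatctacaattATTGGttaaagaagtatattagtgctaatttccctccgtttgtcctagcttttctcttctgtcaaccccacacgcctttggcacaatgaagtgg
In these windows the first letter of TATAAA lies at -30 in EEF2 and at -29 in MT2A, counted from the annotated start. Neither the GAPDH window nor the ALB window holds the word. Each window is taken at 1 start per gene, which need not be the start most used in these cells. Other starts of these genes were not searched, so a window without the word does not mean a gene without it. GAPDH has 28 CG steps (a C followed by a G), EEF2 41, MT2A 37 and ALB 4.

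Over the 14759 protein-coding genes with a promoter in that table, the share holding each word was set against the level. GGGCGG or its reverse complement was found in 34.9% of the promoters of genes without a count, in 73.3% of those at 10 to under 100 CPM and in 71.0% of those at 1000 CPM or more (59.8% of all). TATAAA on either strand ran the other way at first, from 18.2% of genes without a count to 4.28% at 10 to under 100 CPM, and was found in 14 of 107 genes (13.1%) at 1000 CPM or more (9.32% of all). Beside EEF2 and MT2A these 14 included CALR, DHRS2, the ribosomal protein gene RPL3 and the glucose transporter gene SLC2A1. CCAAT was found in 36.5% of all promoters and in 34.6% to 40.2% of each level band. The median number of CG steps rose from 6 in genes without a count to 28 at 10 to under 100 CPM. Each gene was searched in its listed window only, so a word at another start of the gene is missed. A match of letters is a description of the window and not a bound site.

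Some genes that nearly every growing cell uses gave few or no counts, and this limits what a low value means here. RPSA, a protein of the small ribosomal subunit, had no count in any library, and RPL13A had 0, 4 and 6 counts. PKM, which encodes the pyruvate kinase of growing cells, had 4.37 ± 0.402 CPM, and the aldolase gene ALDOA 5.37 ± 0.428 CPM, both low but above 1 CPM. The peroxiredoxin gene PRDX1 stood at 0.304 CPM, the thioredoxin reductase gene TXNRD1 at 0.518 CPM, MAP2K2, which encodes the kinase MEK2, at 0.139 CPM and JUN at 0.181 CPM. RefSeq names 74 pseudogenes after RPSA, 25 after RPL13A, 5 after PKM, 2 after ALDOA and 1 after PRDX1. It names none after TXNRD1, MAP2K2 or JUN. Of all 148 symbols with 10 or more named pseudogenes, 12 were under 1 CPM, and the median of the 148 was 209.6 CPM. Over all symbols, 25.55% had no count and 20.6% a mean above 0 and under 1 CPM. Among cytosolic ribosomal protein genes, 6 of 57 with 10 or more named pseudogenes were under 10 CPM. This compares with 0 of 20 with 1 to 9 and 4 of 7 with 0 named pseudogenes. Whether pseudogenes bear on the low readings was not tested. A gene without signal that is not transcribed and a gene whose amplified part is not measured by this panel or not counted cannot be told apart in these files. In what follows, "no count" refers to the reading, and statements rest on groups of genes more than on 1 gene.

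The lineage markers were headed by mesenchymal genes. Of 42 mesenchymal and fibroblast markers, 31 (73.8%, beside 52.4% of all symbols) were expressed and 10 reached 100 CPM. After VIM came SPARC, a secreted protein that binds collagen, with 1864, 1835 and 1777 CPM. ANXA2 had 1364 ± 40.8 CPM, the galectin gene LGALS1 694.9 ± 57.7 CPM and the adhesion receptor gene MCAM 603.7 ± 18.1 CPM. The mesenchymal cadherins CDH2 (72.8, 82.3 and 72.6 CPM) and CDH11 (52.2, 57.1 and 56.4 CPM) were both present in every library. Fibronectin (FN1) had 274.6 CPM. Transcription factors that repress epithelial genes were found at lower levels, SNAI2 at 48.9, ZEB1 at 30.8, ZEB2 at 30.2 and TWIST1 at 17.6 CPM.

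Several genes that define fibroblasts in tissue were at or near 0 under the fibrosarcoma label. LUM, which encodes the collagen-binding proteoglycan lumican, had no count. DCN (decorin, 0.0435 CPM), POSTN (periostin, 0.0443 CPM), FAP (0.0225 CPM), THY1 (0.0217 CPM), the platelet-derived growth factor receptor PDGFRA (0.0217 CPM) and the homeobox gene PRRX1 (0.0217 CPM) all lay under the level of 3 counts in a library. PDGFRB stood at 3.46 CPM.

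Epithelial markers were mostly without signal, with the simple keratins as the exception. Of 33 epithelial markers, 12 had no count, among them CDH1, which encodes E-cadherin, TP63 and GRHL2, and 6 (18.2%) were expressed. KRT8 had 164.8, 165.7 and 150.1 CPM and its partner KRT18 117.4, 107.7 and 102.8 CPM. The libraries therefore held KRT8 and KRT18 above 100 CPM while the next epithelial marker, the desmosomal gene DSP, had 15.9 ± 1.202 CPM. KRT5 and KRT20 had no count.

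Markers of other lineages were expressed in part. Of 18 skeletal muscle markers 1 was expressed, the slow troponin gene TNNT1, with 91.5, 98.9 and 127 CPM, and the myogenic factor genes MYOD1, MYOG, MYF5 and MYF6 had no count. Of 12 smooth muscle markers 4 were expressed, namely CALD1 (138.6 ± 9.63 CPM), SMTN (106.3 ± 9.13 CPM), the smooth muscle actin gene ACTA2 (35.03 ± 3.55 CPM) and TAGLN (13.6 ± 1.71 CPM), and the regulator MYOCD had none. Among 18 bone and cartilage markers SOX9, a regulator of cartilage formation, had 95.8, 99.7 and 103.9 CPM, while SP7 and ACAN had no count. Of 16 endothelial markers 5 were expressed, with the receptor kinase TIE1 at 45.3 ± 2.63 and the factor FLI1 at 37.9 ± 1.31 CPM, but CDH5 (0.139 CPM) and VWF (0.0225 CPM) were near 0.

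Blood, neuronal, fat and other markers were expressed in fewer cases than the 52.4% of all symbols. Of 24 blood cell markers 5 were expressed, and CD68, a lysosomal glycoprotein (307.1, 261.7 and 283.8 CPM), and LCP1, an actin bundling protein (162.7 ± 7.68 CPM), were the only ones over 10 CPM. The common leukocyte antigen PTPRC had no count. Of 17 neuronal and neuroendocrine markers 4 were expressed, led by TUBB3 (148.4 ± 11.4 CPM) and ENO2 (69.1 ± 2.81 CPM), and CHGA and INSM1 had no count. None of 11 fat cell markers and none of 18 liver and kidney markers was expressed. Of 13 pluripotency and germ cell markers only LIN28B passed, at 3.87 ± 0.369 CPM, and POU5F1 and SOX2 had no count. Among 13 nerve sheath, glial and pigment cell markers MITF was highest at 3.64 ± 0.119 CPM.

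**Figure D2:**
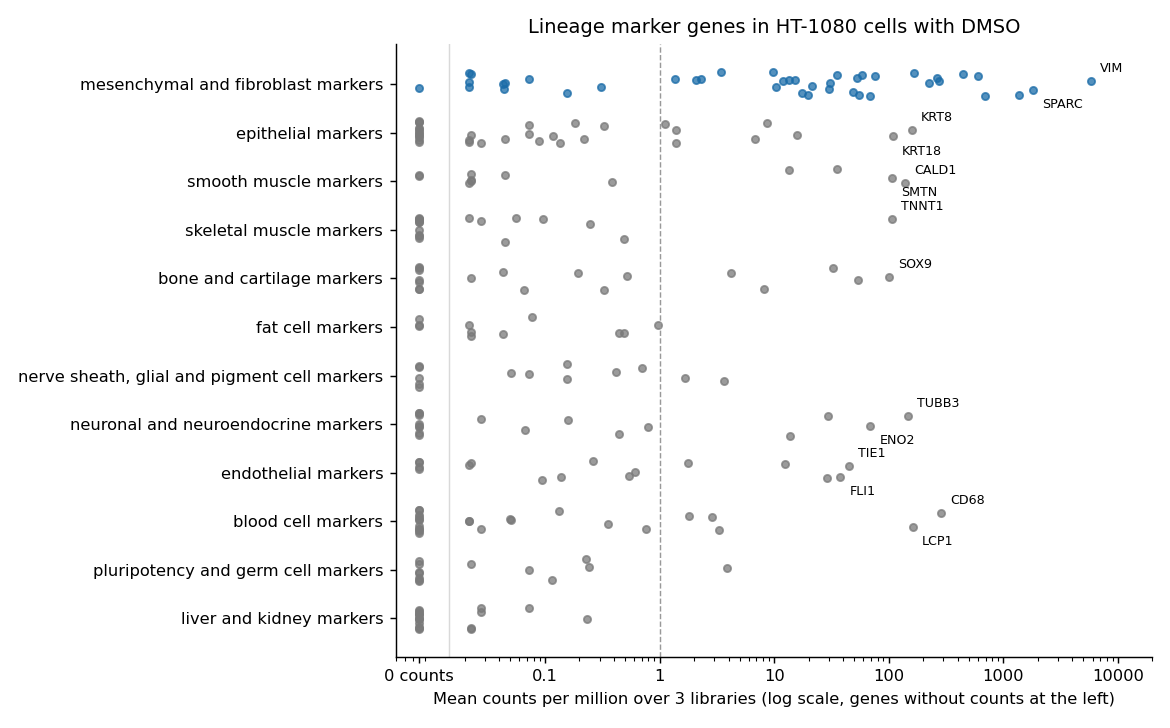
Mean CPM over 3 libraries (horizontal axis, log scale, genes without a count in the column at the left) of each marker gene, 1 point per gene and 1 row per lineage; vertical scatter within a row only separates points, and the dashed line is 1 CPM. The mesenchymal row has 26 of 42 genes at 10 CPM or more, and the liver, kidney and fat cell rows have none.

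HOX genes, which record position along the body axis, were expressed from the middle of their clusters. Of 38 HOX genes 23 (60.5%, beside 52.4% of all symbols) were expressed and 10 reached 10 CPM. HOXA10 was highest (35.01, 34.2 and 34.7 CPM), then HOXB9 (31.0 ± 2.92 CPM), HOXC9 (27.9 ± 1.07 CPM), HOXB6 (26.2 ± 1.72 CPM) and HOXC8 (22.0 ± 2.95 CPM). HOXB9 overlapped in range with HOXC9, HOXC9 with HOXB6 and HOXB6 with HOXC8, so these neighbours were not ordered beyond their spread. By paralog number, 12 of 14 genes of paralogs 4 to 8 and 7 of 7 of paralogs 9 and 10 were expressed, beside 2 of 8 of paralogs 1 to 3 and 2 of 9 of paralogs 11 to 13. The HOXD cluster was the lowest in summed level, 27.1 CPM beside 103.7 CPM for HOXB. HOXA11, HOXB1, HOXC12, HOXD3 and HOXD12 had no count.

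**Figure D3:**
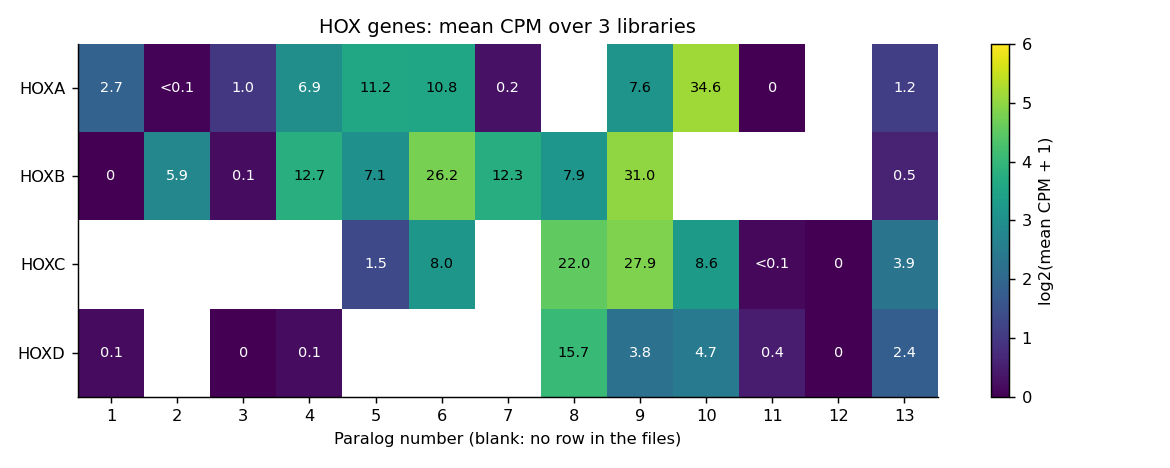
HOX genes by cluster (rows) and paralog number (columns), coloured by log2(mean CPM + 1) with the mean CPM over 3 libraries printed in each cell; white cells have no row in the files. Levels of 10 CPM or more lie in paralogs 4 to 10, with 34.6 CPM in HOXA10 as the highest.

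Among 54 transcription factors of mesoderm and limb, 30 (55.6%, beside 52.4% of all symbols) were expressed. The architectural chromatin proteins HMGA1 (1681, 1701 and 2185 CPM) and HMGA2 (593.2, 535.4 and 561.2 CPM) were far above the rest, and replicate 3 was the highest for HMGA1. FOXD1 (185.3 ± 1.498 CPM) and NR2F2 (129.9 ± 7.95 CPM), which mark stromal cells in development, and FOXC2 (30.3 ± 1.149 CPM) followed. TBX4, TBX5 and PRRX2 were at 0, 0 and 0.0217 CPM.

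Among collagen genes the 2 main chains of collagen IV had the highest readings, and the share of expressed genes was similar in fibrillar and other collagens. Of 11 fibrillar collagen genes 4 (36.4%) were expressed, and the highest was COL27A1 with 27.8, 37.2 and 34.6 CPM. The chains of collagen I were low, COL1A1 at 12.02 ± 0.656 and COL1A2 at 2.09 ± 0.0628 CPM, and COL3A1 stood at 0.0450 CPM. The collagen IV chains of basement membranes were higher, COL4A2 with 414.4, 441.9 and 423.2 CPM and COL4A1 with 239.4, 270.9 and 282.6 CPM. No library of COL4A1 reached a library of COL4A2. COL6A1 (222.6 ± 20.7 CPM), COL13A1 (108.3 ± 2.03 CPM) and COL6A2 (69.2 ± 6.64 CPM) came next among the 30 basement membrane and other collagen genes, of which 12 (40%) were expressed and 9 had no count.

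Laminins and other basement membrane genes were expressed in 13 of 15 cases (86.7%). LAMB3, a chain of laminin-332, had 665, 489.9 and 526 CPM, with replicate 1 highest, and LAMC1 had 312.6 ± 10.9 CPM. Agrin (AGRN) had 192.2 ± 27.6 and LAMA4 133.7 ± 6.66 CPM. LAMC3 had no count. LAMA3, the alpha chain that pairs with LAMB3 in laminin-332, was at 4.40 CPM.

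The enzymes that finish collagen were expressed in a larger share than the matrix glycoproteins. Of 46 matrix glycoprotein and proteoglycan genes 28 (60.9%, beside 52.4% of all symbols) were expressed and 3 had no count. After SPARC, THBS1, an adhesive glycoprotein that activates transforming growth factor beta, had 1310, 1338 and 1617 CPM. EFEMP1 (594.8 ± 41.9 CPM) and the matricellular genes CYR61 (532.8 ± 39.1 CPM) and CTGF (464.2 ± 20.7 CPM) completed the first 5 of 46. Of 22 processing and crosslinking enzymes 19 (86.4%) were expressed and 10 reached 100 CPM. P4HB, a subunit of prolyl 4-hydroxylase, had 1328 ± 98.6, the isomerase PPIB 958.9 ± 113, the transglutaminase TGM2 716.1 ± 37.3, the lysyl hydroxylase PLOD2 700.7 ± 42.2 and the lysyl oxidase LOXL2 385.9 ± 33.4 CPM. High levels of collagen-modifying enzymes thus stood beside low levels of the fibrillar collagen genes themselves.

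The matrix metalloproteinases were dominated by MMP14, a membrane-bound collagenase that activates MMP2. MMP14 had 1597, 1760 and 1527 CPM and ranked 66 of all genes, and MMP2, the gelatinase A, had 162.9, 178.9 and 182.3 CPM. These 2 and MMP16 (16.9 ± 2.55 CPM) and MMP15 (13.6 ± 2.30 CPM), both membrane-bound, were the only 4 of 23 at 10 CPM or more. The ranges of MMP16 (13.9 to 18.4 CPM) and MMP15 (11.4 to 16 CPM) overlapped. MMP1 had 4.35 CPM and MMP9, the gelatinase B, 0.928 CPM, and MMP8, MMP10, MMP11, MMP21 and MMP23B had no count.

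Inhibitors of these enzymes were present at intermediate levels. TIMP2, which also takes part in the activation of MMP2 by MMP14, had 348.5, 379.9 and 344 CPM. TIMP1 had 281.7, 279.8 and 279.1 CPM, below every library of TIMP2. The spread of TIMP1 was among the smallest and no larger than counting error would give. TIMP3 had 46.3 ± 3.24 CPM, the membrane-anchored inhibitor RECK 5.83 ± 0.376 CPM, and TIMP4 no count.

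The plasminogen system was expressed in 8 of 10 genes, which summed to 5343 ± 258 CPM, and 2 of them reached 1000 CPM. ANXA2, given above, serves as a receptor for plasminogen and belongs to this list too. The urokinase gene PLAU had 916.1, 678.4 and 774.4 CPM, its receptor gene PLAUR 521.1, 483.3 and 497 CPM, and the tissue-type activator gene PLAT 255.8, 239.2 and 226.8 CPM. PLAU thus read above PLAUR and PLAUR above PLAT in every library, and PLAU was highest in replicate 1. Of the inhibitors, SERPINE2 had 191.8 CPM and SERPINB2 2.34 CPM. Plasminogen itself (PLG), a liver product, had no count. Among cathepsins and related proteases 15 of 26 (57.7%, beside 52.4% of all symbols) were expressed. BSG, an inducer of metalloproteinases, had 739.7 ± 48.3, the inhibitor CST3 509.9 ± 18.1 and cathepsin B (CTSB) 445 ± 28.7 CPM. ADAM9 had 363.2 ± 25.4 and cathepsin D (CTSD) 287.3 ± 17.9 CPM.

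**Figure D4:**
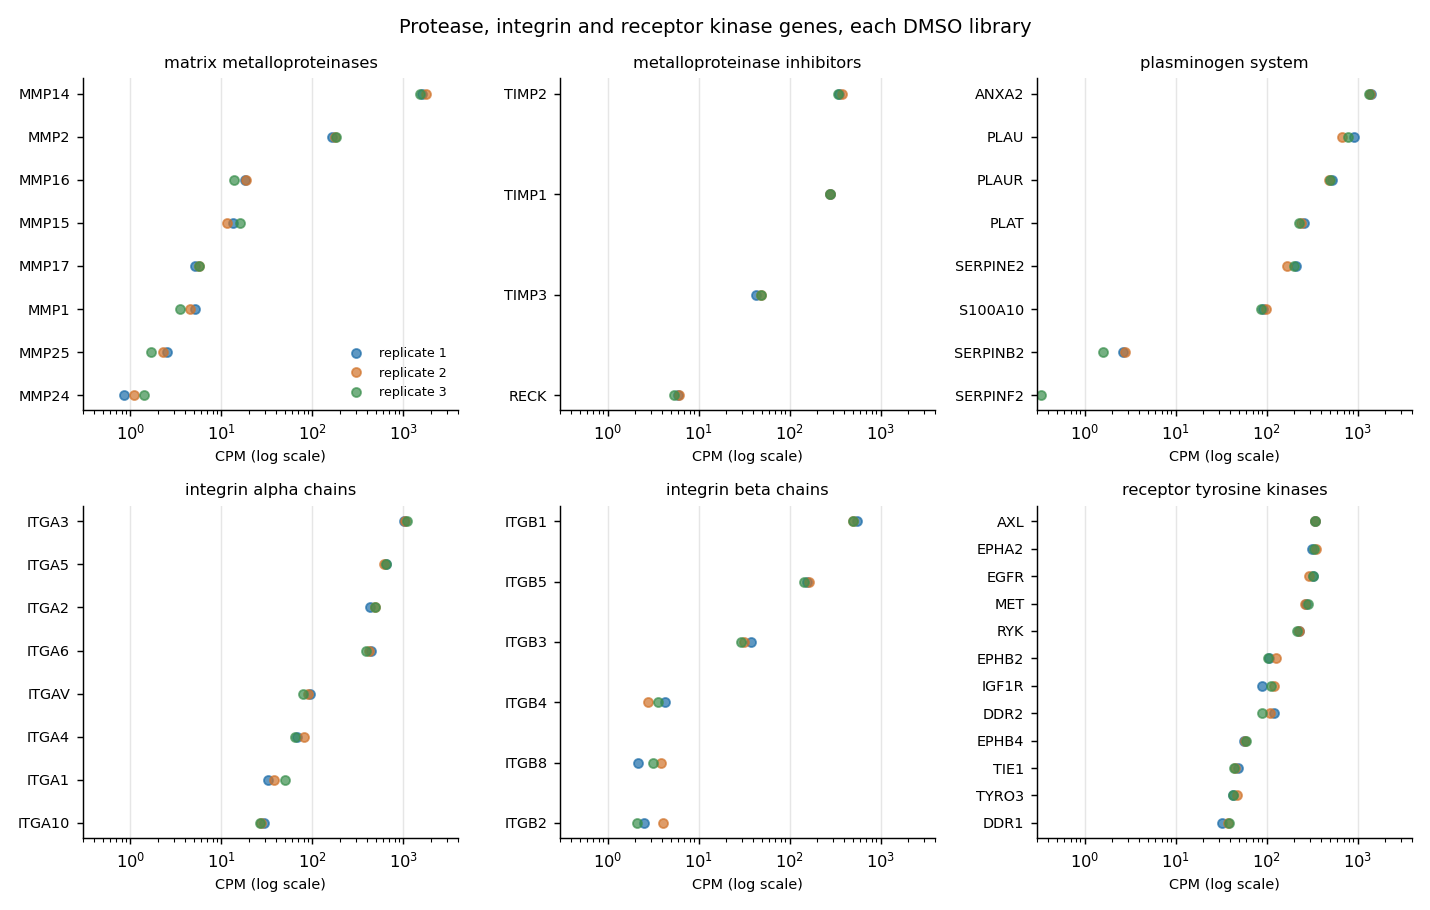
CPM in each of the 3 DMSO libraries (points, horizontal log axis) of members of 6 groups of protease, integrin and receptor kinase genes. Members are drawn from the highest reading downward, with some genes left out. MMP14 (1628 CPM), TIMP2 (357.5 CPM), ITGA3 (1055 CPM), ITGB1 (514.4 CPM) and AXL (338.8 CPM) head their panels, and the points of a gene lie close together above 100 CPM.

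Integrins, the receptors that tie cells to matrix, were read mostly as chains for laminin, fibronectin and collagen. ITGA3, a laminin receptor chain, had 1020, 1042 and 1102 CPM, ITGA5, the fibronectin receptor chain, 649.4, 616.1 and 649.7 CPM, ITGA2, a collagen receptor chain, 433.5, 485.4 and 488 CPM, and ITGA6, a further laminin receptor chain, 444.8, 422.6 and 390.6 CPM. The ranges of ITGA2 and ITGA6 overlapped, and those of ITGA3 and ITGA5 did not overlap with any other alpha chain. ITGB1, a partner of all 4, had 544.6, 494.6 and 503.9 CPM. ITGB5 had 154.3 ± 8.76 and ITGB3 32.7 ± 4.195 CPM, while ITGB4 (3.55 ± 0.768 CPM), ITGB8 (3.06 ± 0.854 CPM) and ITGB2 (2.89 CPM) overlapped in their ranges. ITGB7 (0.708 CPM) and ITGB6 (0.690 CPM) were under 1 CPM, and the leukocyte chains ITGAM and ITGAD had no count.

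Receptor tyrosine kinases were expressed in 23 of 58 cases (39.7%, beside 52.4% of all symbols), and 8 reached 100 CPM. AXL, the receptor for GAS6, had 342.4, 338 and 336.2 CPM, the ephrin receptor EPHA2 311.8, 350.8 and 331.3, the epidermal growth factor receptor EGFR 323.7, 295.6 and 321.1, and the hepatocyte growth factor receptor MET 271, 265.5 and 283.3 CPM. The range of EPHA2 overlapped with those of AXL and EGFR, AXL lay above EGFR in every library, and MET lay below all 3. RYK had 221.8 ± 7.41 CPM. Among the genes without a count were ALK, FGFR2, NTRK2, INSRR and MUSK. The ligand of MET, HGF, also had no count.

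Receptors for cytokines and innate signals were mostly read at lower levels, apart from the TNF receptor family. Of 42 cytokine receptor genes 19 (45.2%, beside 52.4% of all symbols) were expressed. Only OSMR, the oncostatin M receptor, reached 100 CPM, with 206.7, 190 and 186.8 CPM. IL4R (39.3 ± 3.70 CPM) and IFNGR2 (30.2 ± 1.02 CPM) followed, and IL2RA, IL10RA and IL1R2 had no count. TLR4, the receptor for bacterial lipopolysaccharide, was the only one of 10 Toll-like receptor genes that was expressed, with 51.3, 50.8 and 39.3 CPM, and TLR5 to TLR9 had no count. Of 23 genes of the TNF receptor family 14 (60.9%, beside 52.4% of all symbols) were expressed. TNFRSF10B, a death receptor for TRAIL, had 1479, 1250 and 1822 CPM, whereas TNFRSF10A, the other death receptor for this ligand, had no count. TNFRSF12A (358.5 ± 27 CPM), TNFRSF1A (305.5 ± 26.0 CPM) and LTBR (228 ± 9.09 CPM) came next.

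Developmental and nutrient receptors were led by single genes. NOTCH2 had 602.1, 366.6 and 599 CPM, with replicate 2 well below the others, while LGR5, NOTCH4 and FZD10 had no count. Of 15 TGF-beta family receptor genes 12 were expressed, with the co-receptor ENG at 261.7 ± 32.3 and the kinases ACVR1 at 90.7 ± 2.80 and TGFBR1 at 62.1 ± 4.25 CPM. TFRC, the transferrin receptor that takes up iron, had 1144, 1124 and 995.9 CPM. Among 48 nuclear receptor genes 24 (50%, beside 52.4% of all symbols) were expressed, none above NR2F2. The glucocorticoid receptor NR3C1 had 49.1 ± 5.04 CPM.

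Of 79 secreted growth factor and cytokine genes 43 (54.4%, beside 52.4% of all symbols) were expressed and 10 reached 100 CPM. STC1, a secreted glycoprotein hormone, had 2335, 2139 and 2213 CPM, and its relative STC2 443.4, 414.3 and 338.2 CPM. TGFB1 had 438 ± 24.7, FSTL1 401.8 ± 18.5 and VEGFA, which drives vessel growth, 199.1 ± 22.1 CPM. Genes without a count included IGF1, IGF2, EREG, FGF18 and the chemokine gene CXCL12.

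Genes of the RAS pathway were nearly all expressed, 17 of 18 (94.4%). NRAS, the member that is mutated in this line, had 150.6, 147.2 and 135.1 CPM, above HRAS at 12.1 CPM in every library. RASA1, a GTPase activating protein that turns RAS off, was highest with 234.2 ± 10.8 CPM. The GTPase genes RALB and RRAS2 had 128.6 ± 3.86 and 71.9 CPM, RRAS 14.6, RALA 2.06 and MRAS 1.68 CPM. The RAF kinase genes BRAF and ARAF were close to each other, at 46.7 and 42.8 CPM. Downstream, MAP2K1 had 112.9 ± 20.02 and MAPK3 33.0 CPM, and MAP2K2, named above among widely used genes with few or no counts, 0.139 CPM. The exchange factor SOS1 stood at 19.4 and the negative regulator NF1 at 33.2 CPM. Counts do not separate mutant from normal NRAS transcripts.

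Cell cycle genes were expressed in 24 of 25 cases. The G1 cyclin CCND1 was the highest with 766.7, 787.4 and 742.7 CPM, followed by TOP2A, the topoisomerase of dividing cells, at 351 ± 20.7, CDK4 at 237.3 ± 10.5, MCM7 at 204.7 ± 8.32 and BIRC5 at 179.5 ± 16.8 CPM. MYC had 38.0 CPM, MYCL 1.55 CPM and MYCN no count. Of 48 further oncogenes 39 were expressed, and after HMGA1 the highest were CTNNB1, which encodes beta-catenin (713.9 ± 30.7 CPM), HMGA2, WWTR1 (494.9 ± 19.02 CPM) and YAP1 (270.7 ± 14.7 CPM), the last 2 being coactivators of the Hippo pathway. LMO2 and ERG had no count.

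Tumour suppressor genes were expressed in 39 of 43 cases (90.7%), and CDKN2A and CDKN2B were the only ones without a count. NF2 had 290.4, 341.9 and 323.8 CPM and CDKN1A, an inhibitor of cyclin-dependent kinases, 225.6, 183.2 and 190.6 CPM. CADM1 (180.8 ± 15.6 CPM) and SMARCA4 (180.7 ± 1.42 CPM) were next.

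In the order of genes around CDKN2A that RefSeq gives, readings stopped and resumed. On the side of the interferon genes, FOCAD had 91.2, 76.3 and 88.2 CPM, KLHL9 92.4, 95.6 and 94.3 CPM, the long noncoding MIR31HG 9.62 ± 1.82 CPM and the interferon gene IFNE 1.41 ± 0.482 CPM. The next 4 genes in that order that have a row, MTAP, CDKN2A-DT, CDKN2A and CDKN2B, had 0 counts in every library. DMRTA1 then had 24 counts in each library (1.73 ± 0.236 CPM), and further on CAAP1 had 47.4 ± 2.63 and PLAA 69.3 ± 7.95 CPM. MTAP, an enzyme that salvages methylthioadenosine, is widely expressed in human tissue, and it is commonly lost together with CDKN2A. Most of the type I interferon genes between FOCAD and MIR31HG, such as IFNB1, IFNW1, IFNA1 and IFNA2, also had no count, as had HACD4 and ELAVL2, while MLLT3 had 4.90 ± 0.513 CPM. Copy number was not measured here, and whether the 4 empty readings come from lost DNA was not tested.

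Cancer-testis antigens, genes normally restricted to germ cells and often found in tumours, were expressed in 13 of 70 cases (18.6%), and 44 had no count. PRAME had 174.4, 194.5 and 189 CPM, CT55 141.5, 125.1 and 118 CPM and SSX1 128.3, 116 and 123.2 CPM. PAGE5 (78.7 ± 12.9 CPM) and MAGEB2 (64.3 ± 11.3 CPM) followed. Many members of these families are near-identical copies, so reads can be split or lost among them and single values are uncertain.

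The 32 glycolysis genes held 2.64% of all counts, a sum of 26369 ± 2616 CPM of which GAPDH and ENO1 made up most. After GAPDH came the enolase gene ENO1 (5331, 5636 and 6648 CPM) and the lactate dehydrogenase gene LDHA (1181, 1414 and 1162 CPM). The glucose transporter gene SLC2A1 had 1393, 1025 and 1248 CPM and PGK1 986.3, 1091 and 940 CPM. Replicate 3 was highest for GAPDH and ENO1, but not for LDHA, SLC2A1 or PGK1. PKLR, the pyruvate kinase gene of liver and red cells, had no count. Of 8 pentose phosphate genes 7 were expressed, led by TKT (540.9 ± 23.3 CPM), PGD (239.3 ± 16.5 CPM) and TALDO1 (227.5 ± 0.548 CPM).

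Mitochondrial genes were broadly expressed at moderate levels. Of 28 citrate cycle genes 26 were expressed, and the malate dehydrogenase MDH2 was highest with 692.4 ± 18.2 CPM, followed by MDH1 (290.4 ± 5.96 CPM) and IDH3G (199.2 ± 14.4 CPM). IDH1, the member mutated in this line, had 62.5 CPM and its mitochondrial relative IDH2 15.4 CPM. Pyruvate carboxylase (PC) was at 0.0278 CPM. Of 80 nuclear-encoded respiratory chain genes 70 were expressed, with ATP5MG (576.5 ± 37.2 CPM), ATP5MF (576.4 ± 37.7 CPM) and COX6A1 (571.1 ± 25.3 CPM) overlapping in their ranges. The heart and testis forms COX6A2, COX7A1 and COX7B2 had no count.

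Enzymes that make building blocks were present with a few gaps. In serine and one-carbon metabolism MAT2A, which makes S-adenosylmethionine, had 418.3, 498.5 and 585.7 CPM, PSAT1 478.3, 391.6 and 363.2 CPM and the mitochondrial MTHFD2 373.2, 428.3 and 369.9 CPM. The ornithine decarboxylase ODC1, the first enzyme of polyamine synthesis, had 596.7 ± 46.8 CPM and the spermidine synthase SRM 441 ± 33.2 CPM. The argininosuccinate synthase ASS1, which is needed to make arginine, had 2.34 CPM, and the urea cycle genes OTC and ARG1 had no count. Amino acid transporters were led by SLC7A5 (603.1, 601.2 and 531.2 CPM) and its heavy chain SLC3A2 (435, 381.7 and 346.7 CPM). The cystine transporter SLC7A11, which pairs with the same heavy chain, had 95.8 CPM.

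Lipid and iron genes completed the profile. Of 34 genes of fatty acid and cholesterol synthesis 32 were expressed and 17 reached 100 CPM, with the desaturase SCD at 845.4 ± 37.2, the sterol demethylase CYP51A1 at 395.8 ± 43.0 and ACLY, which makes cytosolic acetyl-CoA, at 341.8 ± 9.78 CPM. The iron storage subunits FTL (1778, 1911 and 1713 CPM) and FTH1 (1763, 1748 and 1595 CPM) overlapped in their ranges. GPX1 had 645.9 ± 51.6 and SOD1 523.3 ± 27.3 CPM. GPX4, the peroxidase that guards against ferroptosis, had 148.5 CPM. MT2A had 3492, 3408 and 3595 CPM beside MT1E at 233.9 ± 14.1 CPM, while MT1G had no count. The nicotinamide enzymes NAMPT and NNMT had 164.3 ± 10.8 and 52.2 ± 3.72 CPM. In stored carbohydrate metabolism the glycogen phosphorylases PYGB (287.8 ± 6.65 CPM) and PYGL (178.6 ± 21.01 CPM) were read, and G6PC and PCK1 had no count.

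Of 27 antigen presentation genes 17 (63.0%, beside 52.4% of all symbols) were expressed. B2M, the light chain of class I molecules, had 582.5, 653.8 and 766.1 CPM, TAP2 154.4 ± 27.1 and HLA-E 121.3 ± 9.63 CPM, and HLA-B had no count. HLA genes vary between people and resemble each other, so their reads may not all be placed and these values are uncertain. Among widely expressed surface proteins CD151, a tetraspanin that binds laminin-binding integrins, had 1201, 1150 and 1117 CPM and PODXL 524.1, 365 and 538.4 CPM, with replicate 2 lowest, and VCAM1 had no count.

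The 3 libraries were close to each other for most genes. Between pairs, the correlation of log2(CPM + 1) across genes ran from 0.993 to 0.994 (genes are not independent replicates), and 38 to 43 of the 10844 expressed genes differed by more than 2-fold. The median coefficient of variation (CV, SD divided by mean) was 9.38% over the 10844 expressed genes and 6.78% over the 2016 genes at 100 CPM or more. A common biological CV of 9.32% was estimated over the expressed genes by edgeR with an intercept alone. No 2 libraries agreed within counting error, since chi-square over genes divided by its degrees of freedom was 9.64 to 11.5, and all 3 were kept as replicates.

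A few genes varied far more than this. The small nucleolar RNA SNORD15A had 12.6, 32.6 and 11.5 CPM, with replicate 2 above the others (mean 18.9 CPM, and 12.04 CPM without replicate 2). NOP10, a protein of small nucleolar particles, had 557.4, 230.0 and 318.3 CPM, with replicate 1 above them. HSPA5, the main chaperone of the endoplasmic reticulum, had 2347, 1296 and 1272 CPM, and CRELD2, a folding factor of the same compartment, 135, 79.7 and 84.8 CPM, both highest in replicate 1. IGSF3 had 12.1, 29.4 and 25.2 CPM and PA2G4 10.1, 20.5 and 24.2 CPM, both lowest in replicate 1. At the other end, RPL7A (854.8 CPM, CV 0.220%) varied least among genes at 100 CPM or more. TALDO1, PCBP2, HSPA1A (189.7 CPM) and TIMP1 (280.2 CPM) were among the 10 genes with the smallest spread. The spread of these genes was no larger than counting error would give, so it does not mark them as stable. With 3 libraries the CV of 1 gene is itself imprecise.

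**Figure D5:**
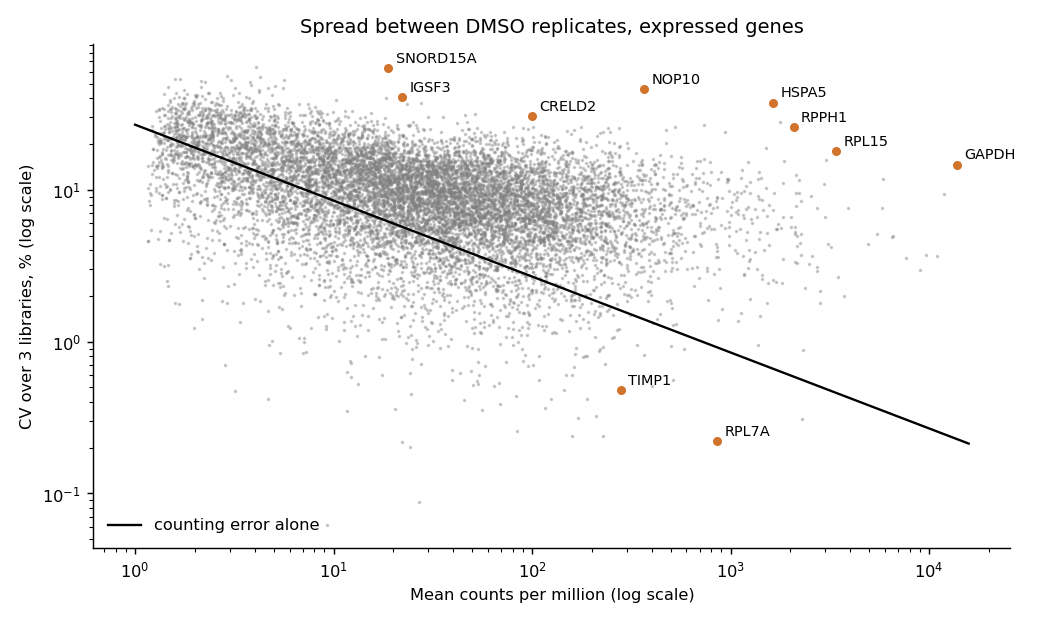
Coefficient of variation over the 3 DMSO libraries (vertical axis, log scale, percent) against mean CPM (horizontal axis, log scale) for the 10844 expressed genes, 1 grey point per gene; the black line is the variation that counting error alone would give, and orange points are named genes. Above 100 CPM most genes lie over the line, with NOP10 (46.0%) and HSPA5 (37.4%) far above the median of 6.78%.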

How the data were processed

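RNA of the 3 DMSO libraries was amplified with the Ion AmpliSeq Transcriptome panel and sequenced on the Ion Proton, per the labels' protocols. The deposited values are raw counts of reads per gene symbol, made by the authors for each library apart. The submitters' processing notes list HTSeq, DESeq2 1.20.0 and hg19 without a role. Aligner, annotation and strandedness are not given in the sources used, so reads of overlapping or antisense genes and of near-identical copies may be split or lost.

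CPM, ranks, detection and CV were computed in Python 3.11.15 with pandas 2.3.3, and dispersion in R 4.3.3 with edgeR 4.0.16, after a check on simulated counts. All results are descriptions without a test, since 1 condition was described. Alternatives were TMM and upper-quartile scaling, library totals without the 20 most abundant genes, thinning to the smallest total, other detection limits and each library left out. Of the symbols, 20463 matched the RefSeq gene table (GRCh38.p14), which was used for gene order, pseudogene names and biotypes only. Promoters came from the RefSeq promoter table of the same build.

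The 58 gene lists (1626 genes, of which 7 had no row) and the members described were chosen with earlier results of these data known. Genes were named by a rule: the 30 most abundant, the 5 highest and up to 5 lowest of each list, all members of 4 short lists, the genes with the largest and smallest spread, and the 15 most abundant outside the lists. ALDOA, ASS1, CAAP1, CDH5, CDKN2A-DT, CXCL12, DCN, FN1, GPX4, IDH1, JUN, KRT20, MIR31HG, MMP1, MMP9, MT1G, MYC, PDGFRB, PKM, PLAA, POSTN, PRRX2, RPL13A, RPL3, SLC7A11, SNAI2, TP63, TWIST1, TXNRD1, VWF, ZEB1 and ZEB2 lie outside this rule and were chosen after their values were seen, as were the lists in the closing section. Some genes that the rule selects are left out of the text.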

Additional observations from a re-analysis of the deposited data

How the results depend on the processing

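No count or share of the profile changed by more than 1.5 times under any alternative that was run. The number of expressed genes ran from 10813 (thinned libraries) to 11157 (at least 10 counts in each library), beside 10844. The number of genes with a count in every library was 12168 when 3 counts were required, and 15399 had a count in any library, beside 13028. The median CV fell to between 7.21% and 8.12% with 1 library left out and was 9.61% in thinned libraries. A median CV over 2 libraries runs lower than one over 3 by construction, so the fall does not measure a dependence on any library. In all 58 lists the number of members at 10 CPM or more changed by at most 1.5 times. Fibrillar collagens met this limit, with 3 members beside 2, in thinned libraries and with totals without the 20 most abundant genes. Cadherins met it without replicate 2, with 2 members beside 3. Of 333 named genes at 1 CPM or more, TMM and upper-quartile scaling moved none by more than 1 SD, thinning moved 4, and totals without the 20 most abundant genes, which raised levels by a median of 1.14 times, moved 262. Leaving out a library moved 1 of them by more than 1.5 times, SNORD15A without replicate 2. The depth sets the limit of 0.196 to 0.250 CPM for genes without a count. Reads were not tied to molecules and amplicon positions were not used here, so levels below 1 CPM carry little information about transcription. No paired analysis was possible because 1 group was described.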

Other observations

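Noncoding RNAs held a small share of counts with a few very abundant members. Protein-coding genes, 18366 of the 20683 symbols, took 97.85% ± 0.128 of the counts, and RMRP alone took 0.897%. Only RNAs that the panel targets can be counted, so these are shares of the panel's readings and not of all RNA in the cell. RPPH1, the RNA of RNase P, which trims transfer RNAs, had 2694, 1721 and 1822 CPM, with replicate 1 above the others. Of 76 small nucleolar RNA genes 54 were expressed, and together they held 0.289% of counts. The 1221 long noncoding RNA genes held 0.411% and 195 of them (16.0%) were expressed. SNHG5, a host gene of small nucleolar RNAs (457.5, 438.2 and 356.9 CPM), and MALAT1, a nuclear speckle RNA (347.8, 465.3 and 439.1 CPM), were close in level, and NEAT1, the scaffold of paraspeckles, had 154 CPM and GAS5 113.9 CPM. HOTTIP, transcribed from the end of the HOXA cluster, had no count, and H19 and MEG3, which are imprinted, stood at 0.0990 and 0.0278 CPM. The telomerase RNA TERC had 23.5, 21.6 and 18.5 CPM.

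Folding factors of the endoplasmic reticulum were higher in replicate 1. In a list of 18 such genes, written after HSPA5 and CRELD2 were seen among the genes with the largest spread, 16 were highest in replicate 1, 2 in replicate 2 and none in replicate 3. Over the 7980 genes at 10 CPM or more, 32.8% were highest in replicate 1. HYOU1, a chaperone of that compartment, had 609.1, 401.2 and 410.8 CPM, DNAJB11, a co-chaperone of HSPA5, 371.8, 269.3 and 261.6 CPM, and MANF, a secreted factor of the same response, 277.6, 217.6 and 224.2 CPM. The 2 exceptions were HERPUD1 (58.3, 64.8 and 64.2 CPM) and XBP1 (61.1, 65.9 and 59.2 CPM), which take part in the unfolded protein response. The summed level of the list was 15993, 13095 and 13695 CPM. The list was chosen on these libraries, so its count is a description, and the cause was not tested.

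Tubulin genes were carried by a few isotypes. Of 16 tubulin genes 12 were expressed, and TUBA1B (3110 CPM), TUBB (2738 CPM) and TUBA1C (2202 CPM) made up most of a summed 9368 ± 479 CPM. TUBB1 and TUBB8 had no count. The tubulins share long stretches of sequence, so the split between them is uncertain.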
